A study of Mus musculus with 3 samples.

Results

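The p53 pathway was followed here through 33 of the 32285 genes in the count tables, in single nuclei of the mouse submandibular salivary gland. The 33 genes are p53 itself, its inhibitors and genes that p53 is known to switch on or that act in DNA damage repair, and they were taken by symbol. Each symbol was found once. Nuclei had been isolated from fresh frozen glands of wild-type mice, stained with the DNA dye DAPI, flow sorted and captured with 10x Genomics 3' chemistry, and 1 library was made for each of 3 groups. The first group was irradiated and given pilocarpine, a muscarinic agonist that stimulates saliva secretion (labelled IR+pilocarpine). The second group was irradiated and given saline (IR+saline), and the third was not irradiated and is called non-irradiated here. Per the labels, glands were taken 90 days after irradiation, with pilocarpine given from day 30 to day 90, while the extraction protocol gives 93 days. The radiation dose, the sex and number of mice per library and the hour of collection are not given in the sources used here. The series was designed to look for changes in cell identities and signalling between these treatment groups.

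p53 is a transcription factor that is held low by the ubiquitin ligase Mdm2 and its relative Mdm4. DNA damage frees p53 from them, and p53 then raises genes that stop the cell cycle, repair DNA, kill the cell or feed back on p53, Mdm2 among them. In salivary glands, radiation is known to cause p53-dependent loss of acinar cells, the cells that secrete the fluid and protein of saliva.

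p53 binds DNA as a pair of 10-base sites, and the upstream sequences of 4 members are shown because they carry such a 10-base site and because these genes differ in how far they stood apart between the libraries below. The windows come from RefSeq on GRCm38.p6 and run 5′ to 3′ on the gene's strand, with 10-base sites in capitals. Bax is shown at chr7:45466929-45467128 (minus strand), with its 10-base site 201 bases upstream of the start. The Ccng1 window is chr11:40755317-40755516 (minus strand), with a 10-base site 185 bases upstream. Mdm2 is shown at chr10:117710789-117710988 (minus strand), with a 10-base site 186 bases upstream, and Cdkn1a at chr17:29090749-29090948 (plus strand), with 10-base sites 73 and 51 bases upstream.
Bax: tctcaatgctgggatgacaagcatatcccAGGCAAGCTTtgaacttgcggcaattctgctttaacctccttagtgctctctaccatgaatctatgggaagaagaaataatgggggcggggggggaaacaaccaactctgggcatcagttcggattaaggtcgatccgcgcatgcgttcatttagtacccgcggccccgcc
Ccng1: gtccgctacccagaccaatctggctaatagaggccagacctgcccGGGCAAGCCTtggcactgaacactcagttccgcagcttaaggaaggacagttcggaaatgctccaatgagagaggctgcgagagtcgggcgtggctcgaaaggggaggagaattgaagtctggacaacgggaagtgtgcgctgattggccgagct
Mdm2: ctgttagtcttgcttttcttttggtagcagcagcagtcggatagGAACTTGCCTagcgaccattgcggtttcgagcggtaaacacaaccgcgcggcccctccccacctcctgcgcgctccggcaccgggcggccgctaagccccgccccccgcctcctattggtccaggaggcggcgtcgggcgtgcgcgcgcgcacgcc
Cdkn1a: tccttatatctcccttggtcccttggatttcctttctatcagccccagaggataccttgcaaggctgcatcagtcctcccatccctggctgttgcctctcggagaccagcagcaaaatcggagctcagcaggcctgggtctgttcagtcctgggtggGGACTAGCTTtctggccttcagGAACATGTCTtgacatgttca

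Among the members, 24 of 33 matched a RefSeq window of 250 bases upstream to 50 bases downstream of a start, with 34 windows in all. The p53 10-base site, a palindromic motif that reads the same on both strands, was found in 11 of these 34 windows (32.35%), against 2745 of 32851 windows of all genes (8.356%). The windows with a 10-base site belonged to Aen, Bax, Ccng1, Cdkn1a, Ckap2, Ei24, Mdm2, Polk, Sesn1 and Trp53. Cdkn1a, Polk and Sesn1 each also had a window at another start without a 10-base site, that of Cdkn1a at chr17:29093519-29093818. A pair of 10-base sites with a spacer of at most 13 bases was found in 1 member window (2.941%), the Cdkn1a window shown, where the spacer is 12 bases, and in 24 windows of all genes (0.07306%). The Eda2r, Gdf15, Plk2, Psrc1 and Phlda3 windows held no 10-base site, which says only that these letters are not in those windows.

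Of 32511 barcodes, 27633 nuclei with at least 500 detected genes and at most 5% mitochondrial UMIs (unique molecular identifiers, 1 per captured RNA molecule) were used. They were 8376 IR+pilocarpine, 8622 IR+saline and 10635 non-irradiated nuclei, with a median of 2048, 2113 and 1536 UMIs in that order. The libraries shared 24 to 26 of these barcodes in each pair. The 33 genes held 39356 UMIs in the IR+pilocarpine library, 34324 in the IR+saline library and 23774 in the non-irradiated library, or 1180, 1176 and 930 CPM (UMIs per 1000000). Classes of nuclei were rebuilt from marker genes and may differ from the study's own names. Acinar-like nuclei numbered 4679, 3517 and 6237 in the same order, and duct-like nuclei 345, 1644 and 665. Of 17 acinar markers, 2 had no UMI in the acinar-like nuclei of any library. RNA of acinar genes was present in each other class. Over all classes the 17 acinar markers summed to between 40802 and 81239 CPM in the IR+pilocarpine library, between 19409.5 and 77295 CPM in the IR+saline library and between 28655 and 287424 CPM in the non-irradiated library, with 2 to 8 of the 17 at 0. Each class below is therefore given with its acinar marker level, and the ratios of each class other than the acinar-like nuclei and cluster 9 were also computed with acinar RNA subtracted. With 1 library per group no test between groups can be made. CPM ratios are given with exact 95% intervals that cover counting error only and say nothing of the spread between mice. Log2 ratios carry a pseudocount of 1 CPM. Levels are not compared between genes, since they are not per length.

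In acinar-like nuclei, members of the p53 pathway differed in how they stood between the libraries. Trp53, its inhibitors and the DNA repair genes differed by less than 2-fold between any of the 3 libraries. A set of cell cycle and cell death genes, Gdf15, Zmat3 and the noncoding RNA gene Pvt1 were higher in both irradiated libraries than in the non-irradiated one. IR+saline over non-irradiated, 29 of the 33 genes reached the minimum of 20 UMIs over both libraries, and 23 of them had a ratio above 1. Of these, 10 were at least 2-fold higher (background: 3.45% of 13894 genes) and 0 were at least 2-fold lower (background: 2.99%). The 10 were Aen, Ccng1, Eda2r, Gdf15, Phlda3, Plk2, Psrc1, Pvt1, Tnfrsf10b and Zmat3, of which 5 had fewer than 20 UMIs in the non-irradiated library and so reached the minimum through the library where they were high. The median log2 ratio was 0.69 over the 29 genes and -0.03 over all genes. IR+pilocarpine over non-irradiated, 11 of 30 genes were at least 2-fold higher (background: 3.38%), the same 10 and Perp, and 0 were lower (background: 2.22%). The median log2 ratio was 0.50, against 0.02 over all genes. Both comparisons use the same non-irradiated library.

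**Figure D1:**
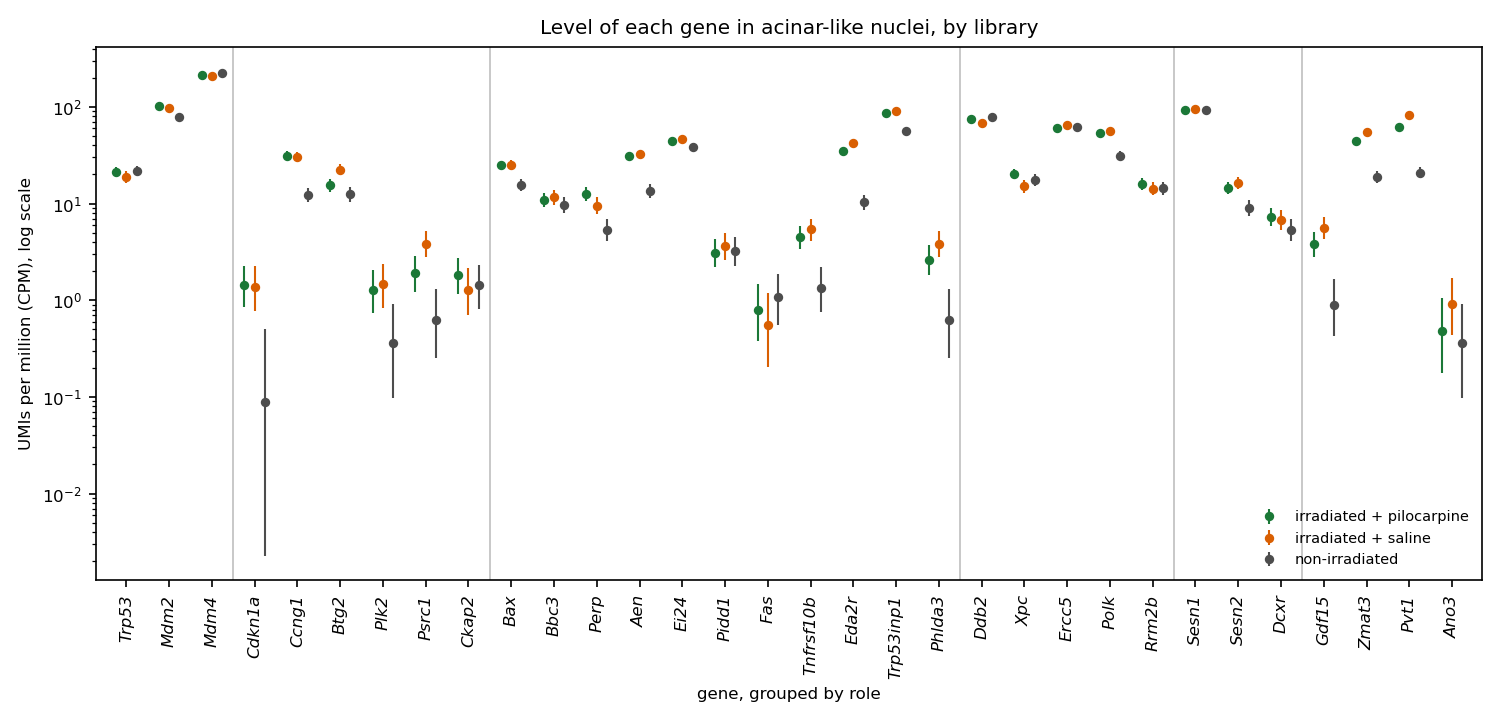
Level of each of 32 genes in acinar-like nuclei, in CPM on a log scale, with genes grouped by role along the x axis; points are the IR+pilocarpine, IR+saline and non-irradiated libraries, and bars are exact 95% Poisson intervals. Trp53, Mdm4, Ercc5 and Sesn1 lie close together in the 3 libraries, while Ccng1, Aen, Eda2r, Zmat3 and Pvt1 lie higher in both irradiated libraries; Pmaip1, with 1 UMI in all, is not drawn.

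p53 and its inhibitors came to 341 CPM in the IR+pilocarpine library, 328 in the IR+saline library and 326 in the non-irradiated library when summed. Trp53 (chromosome 11, 69580359 to 69591873, plus strand) had 21.4, 18.7 and 21.9 CPM from 268, 204 and 244 UMIs, in the order IR+pilocarpine, IR+saline and non-irradiated, which is kept for all triplets below. Its IR+saline over non-irradiated ratio was 0.857 (0.708 to 1.04) and its IR+pilocarpine over non-irradiated ratio 0.980 (0.821 to 1.17). Mdm2 (chromosome 10, 117688875 to 117710758, minus strand), the ligase that degrades p53 and is itself a p53 target, had 103, 98.5 and 78.6 CPM. Mdm2 was 1.25 times higher in the IR+saline library (1.15 to 1.37) and 1.31 times higher in the IR+pilocarpine library (1.20 to 1.43) than in the non-irradiated library. Mdm4, which binds p53 and blocks its activity, had 216, 210 and 225 CPM, with an IR+saline over non-irradiated ratio of 0.935 (0.883 to 0.990). Of the 3 genes, then, Mdm2 was the one higher in both irradiated libraries, and by less than 2-fold.

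The 6 cell cycle genes summed to 53.3, 61.1 and 27.2 CPM. Ccng1 (chromosome 11, 40748552 to 40755311, minus strand), which encodes cyclin G1, had 31.4, 30.7 and 12.3 CPM from 393, 334 and 137 UMIs. It was 2.50 times higher in the IR+saline library (2.04 to 3.07) and 2.56 times higher in the IR+pilocarpine library (2.10 to 3.13), and both irradiated libraries differed by little, at a ratio of 1.02 (0.883 to 1.19). Btg2, which slows cell proliferation, separated the 2 irradiated libraries, with 15.4, 22.4 and 12.5 CPM. Its IR+saline over non-irradiated ratio was 1.80 (1.46 to 2.23), while IR+pilocarpine over IR+saline was 0.688 (0.567 to 0.835). Psrc1, a spindle microtubule protein, had 24, 42 and 7 UMIs and was likewise lower in the IR+pilocarpine than in the IR+saline library, at 0.497 (0.288 to 0.840). Plk2, a polo-like kinase, was scarce, with 16, 16 and 4 UMIs. Cdkn1a (chromosome 17, 29090976 to 29100727, plus strand) encodes p21, the inhibitor of cyclin-dependent kinases that is the best known p53 target, and was also scarce. It had 18 UMIs in 4679 IR+pilocarpine nuclei, 15 in 3517 IR+saline nuclei and 1 in 6237 non-irradiated nuclei, below the minimum in either comparison with the non-irradiated library. Ckap2, a spindle protein, had 23, 14 and 16 UMIs and no difference beyond counting error.

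The 12 cell death genes summed to 257, 271 and 155 CPM. Eda2r (chromosome X, 97333840 to 97377216, minus strand), the receptor of ectodysplasin A2, had 34.9, 42.3 and 10.3 CPM from 437, 461 and 115 UMIs. It was 4.11 times higher in the IR+saline library (3.34 to 5.09) and 3.39 times higher in the IR+pilocarpine library (2.75 to 4.20). Tnfrsf10b, the mouse receptor for TRAIL, had 4.48, 5.42 and 1.34 CPM, an IR+saline over non-irradiated ratio of 4.03 (2.26 to 7.65). Fas, the death receptor for Fas ligand, had only 10, 6 and 12 UMIs. Aen (chromosome 7, 78895854 to 78911209, plus strand), an apoptosis-enhancing nuclease, had 31, 32.4 and 13.5 CPM and was 2.40 times higher in the IR+saline library (1.97 to 2.92). Perp, a membrane protein of desmosomes, had 12.6, 9.55 and 5.38 CPM, and was 1.32 times higher in the IR+pilocarpine than in the IR+saline library (1.03 to 1.71). The 2 irradiated libraries were thus close for Aen, but in opposite order for Perp and Eda2r. Bax, which forms pores in mitochondria, had 24.9, 25 and 15.7 CPM and was 1.59 times higher in each irradiated library than in the non-irradiated one. Trp53inp1, a stress-induced nuclear protein that enhances p53 activity, had 87.2, 90.8 and 55.7 CPM, an IR+saline over non-irradiated ratio of 1.63 (1.47 to 1.80). Of the BH3-only genes, Bbc3 (PUMA) had 10.9, 11.7 and 9.68 CPM with an IR+saline over non-irradiated ratio of 1.21 (0.925 to 1.57), and Pmaip1 (NOXA) had 0, 0 and 1 UMI. Phlda3, an inhibitor of Akt, had 33, 42 and 7 UMIs. Ei24, a protein of the endoplasmic reticulum, was 1.19 times higher in the IR+saline library (1.05 to 1.36), and Pidd1, the scaffold of the PIDDosome, had 3.12, 3.67 and 3.23 CPM.

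DNA repair genes had sums of 225, 218 and 205 CPM. Polk, a translesion DNA polymerase, had 54.2, 56.6 and 31.2 CPM, and was 1.81 times higher in the IR+saline library (1.59 to 2.08) and 1.74 times higher in the IR+pilocarpine library (1.52 to 1.98). Ddb2, which recognises ultraviolet lesions, had 74.6, 67.4 and 79.6 CPM, lower in the IR+saline than in the non-irradiated library at a ratio of 0.847 (0.767 to 0.935). Xpc, which recognises helix-distorting lesions, had 20.3, 15.2 and 17.6 CPM, and was 1.34 times higher in the IR+pilocarpine than in the IR+saline library (1.10 to 1.64). The endonuclease gene Ercc5 had 60.4, 64.3 and 61.9 CPM and Rrm2b, a subunit of ribonucleotide reductase, 15.8, 14.3 and 14.3 CPM. Polk overlaps Gm17622 and Ddb2 overlaps Acp2 on the other strand, and whether counting used strand is not given in the sources used here.

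Of the sestrins, which restrain mTORC1 under stress, Sesn1 had 94.0, 95.5 and 92.5 CPM, while Sesn2 had 14.5, 16.4 and 9.05 CPM and was 1.82 times higher in the IR+saline library (1.42 to 2.34). Sesn2 overlaps Gm12981 on its own strand. Dcxr, a sugar and carbonyl reductase, had 7.27, 6.80 and 5.38 CPM with an IR+saline over non-irradiated ratio of 1.26 (0.887 to 1.81). The sum of Gdf15, Zmat3, Pvt1 and Ano3 had the largest ratio of the 6 roles, at 111, 143 and 41.0 CPM and an IR+saline over non-irradiated ratio of 3.5. Zmat3 (chromosome 3, 32334792 to 32366014, minus strand), an RNA-binding zinc finger protein, had 44.4, 55.3 and 19.0 CPM from 556, 602 and 212 UMIs. It was 2.91 times higher in the IR+saline library (2.48 to 3.42) and 2.34 times higher in the IR+pilocarpine library (1.99 to 2.75). Pvt1 (chromosome 15, 62037986 to 62378096, plus strand), a long noncoding RNA gene near Myc, had 62.7, 81.6 and 20.8 CPM. Both were lower in the IR+pilocarpine than in the IR+saline library, Zmat3 at 0.804 (0.715 to 0.903) and Pvt1 at 0.767 (0.696 to 0.846). Gdf15, a secreted stress cytokine, had 48, 61 and 10 UMIs, and Ano3, a membrane protein of the anoctamin family, 6, 10 and 4. For the scarce Gdf15, Psrc1 and Phlda3 the size of the IR+saline over non-irradiated log2 ratio turns on the pseudocount, at 1.80, 1.58 and 1.58 with 1 CPM and 0.52, 0.38 and 0.38 with 10 CPM.

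Between the 2 irradiated libraries, IR+pilocarpine over IR+saline, 30 genes reached the minimum in acinar-like nuclei and 0 were at least 2-fold higher (background: 1.48%). Psrc1 alone was at least 2-fold lower (background: 1.19%). The interval lay below 1 for Btg2, Eda2r, Psrc1, Pvt1 and Zmat3 and above 1 for Ddb2, Perp and Xpc. The median log2 ratio was -0.06, against 0.05 over all genes.

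The acinar-like nuclei of the libraries lay in different clusters, so the same genes were read within each of the 5 acinar-like clusters. Cluster 0 held 38.3%, 60.1% and 2.55% of the acinar-like nuclei, and cluster 3 held 38.9%, 25% and 3.46%, whereas clusters 1 and 2 held 48.2% and 43.9% of those of the non-irradiated library. Zmat3 had IR+saline over non-irradiated ratios of 4.46, 2.76, 2.63, 5.99 and 1.20 in clusters 0, 1, 2, 3 and 13, and Eda2r had 6.87, 3.58, 2.29, 9.85 and 2.64. Both genes therefore had ratios above 1 in all 5 clusters, with non-irradiated counts as low as 2 UMIs of Zmat3 and 1 UMI of Eda2r in cluster 3. Aen had ratios of 1.74, 1.55, 1.28, 2.96 and 1.76, below its pooled 2.40 in 4 of 5 clusters. Mdm2 had 1.31, 1.51, 0.949, 1.82 and 1.18. In cluster 13, the smallest over all libraries, Trp53inp1 had 172, 172 and 139 CPM, and its ratio there was 1.23. A cluster that was kept out of the acinar-like class, cluster 9 with leading genes Smgc and Extl1, held 58, 34 and 823 nuclei.

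Single nuclei were compared after thinning each to 800 UMIs, which left out 103, 78 and 480 shallower acinar-like nuclei. Nuclei with 3 or more UMIs of the 33 genes made up 7.58% of IR+pilocarpine nuclei (Clopper-Pearson 95% interval 6.83 to 8.39), 8.20% of IR+saline nuclei (7.30 to 9.17) and 3.39% of non-irradiated nuclei (2.93 to 3.89). Without thinning the shares were 44.0%, 50.01% and 21.5%. The mean per thinned nucleus was 0.895, 0.911 and 0.683 UMIs, and the variance over the mean 1.20, 1.28 and 1.04. Nuclei with none of the 33 genes made up 43.6% of the IR+pilocarpine and 44.1% of the IR+saline nuclei, and the highest nucleus held 8, 11 and 6 UMIs. The higher levels of the irradiated libraries were thus seen in a larger share of nuclei with several UMIs, with a tail of 34, 33 and 7 nuclei with 5 or more. In myoepithelial-like nuclei the thinned shares with 3 or more UMIs were 12.5%, 12.9% and 6.77%, and in duct-like nuclei 4.91%, 7.41% and 4.33%.

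**Figure D2:**
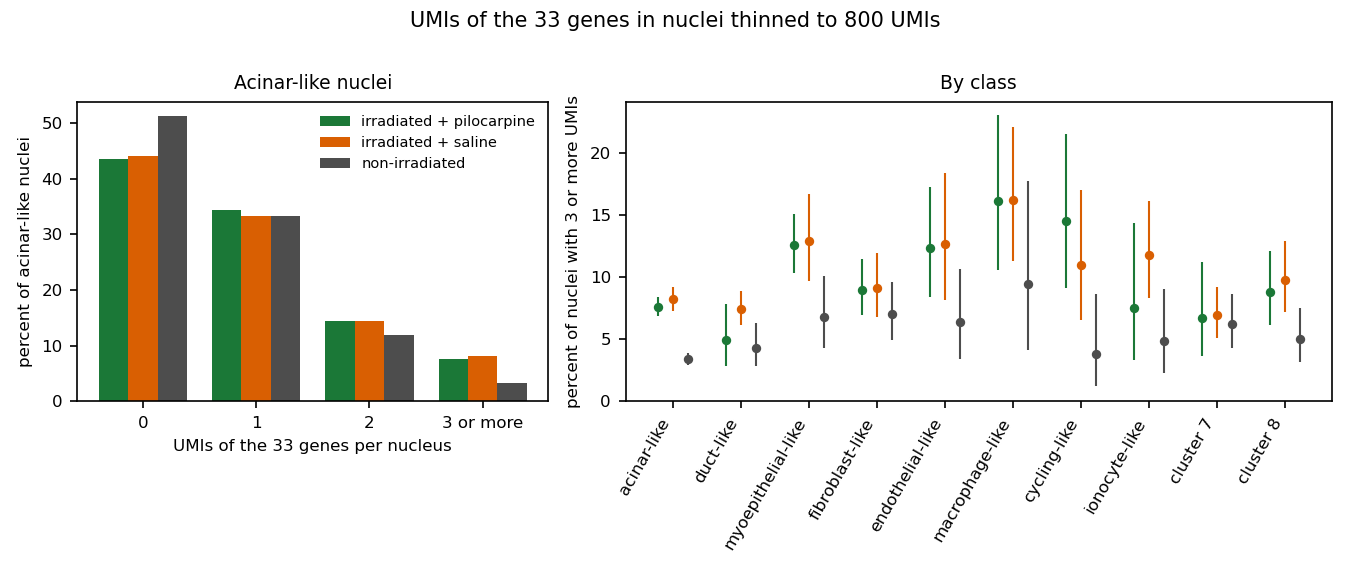
Left, percent of acinar-like nuclei with 0, 1, 2 or 3 or more UMIs of the 33 genes after thinning each nucleus to 800 UMIs; right, percent of nuclei with 3 or more such UMIs in each class, with Clopper-Pearson 95% intervals. In acinar-like nuclei, 7.58% of IR+pilocarpine and 8.20% of IR+saline nuclei had 3 or more, against 3.39% of non-irradiated nuclei, and in each class drawn the non-irradiated point is the lowest of the 3. The classes share the same libraries, and in some the intervals overlap, as in cluster 7 at 6.70%, 6.94% and 6.23% (IR+pilocarpine, IR+saline and non-irradiated).

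Of the genes with enough UMIs in 6 or more classes, 6 were above 1 in each of those classes IR+saline over non-irradiated. Zmat3 had a ratio above 1 in 9 of 9 classes (1.29 to 2.99), Ccng1 in 8 of 8 (1.27 to 2.71), Pvt1 in 8 of 8 (1.67 to 3.93) and Aen in 7 of 7 (1.30 to 3.79). The others were Btg2 with 8 of 8 (1.51 to 1.98) and Perp with 6 of 6 (1.10 to 3.02). These counts include the acinar-like class, and all classes share the same libraries and some acinar RNA, so they are not independent. The share of all genes with a ratio above 1 in each class was not computed. Mdm2 was above 1 in 8 of 12 classes (0.696 to 1.30) and Ddb2 in 3 of 12. Eda2r was above 1 in 9 of 10 classes, and the exception was the duct-like class. IR+pilocarpine over non-irradiated, Pvt1 and Ccng1 were each above 1 in 11 of 11 classes and Zmat3 in 10 of 11.

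**Figure D3:**
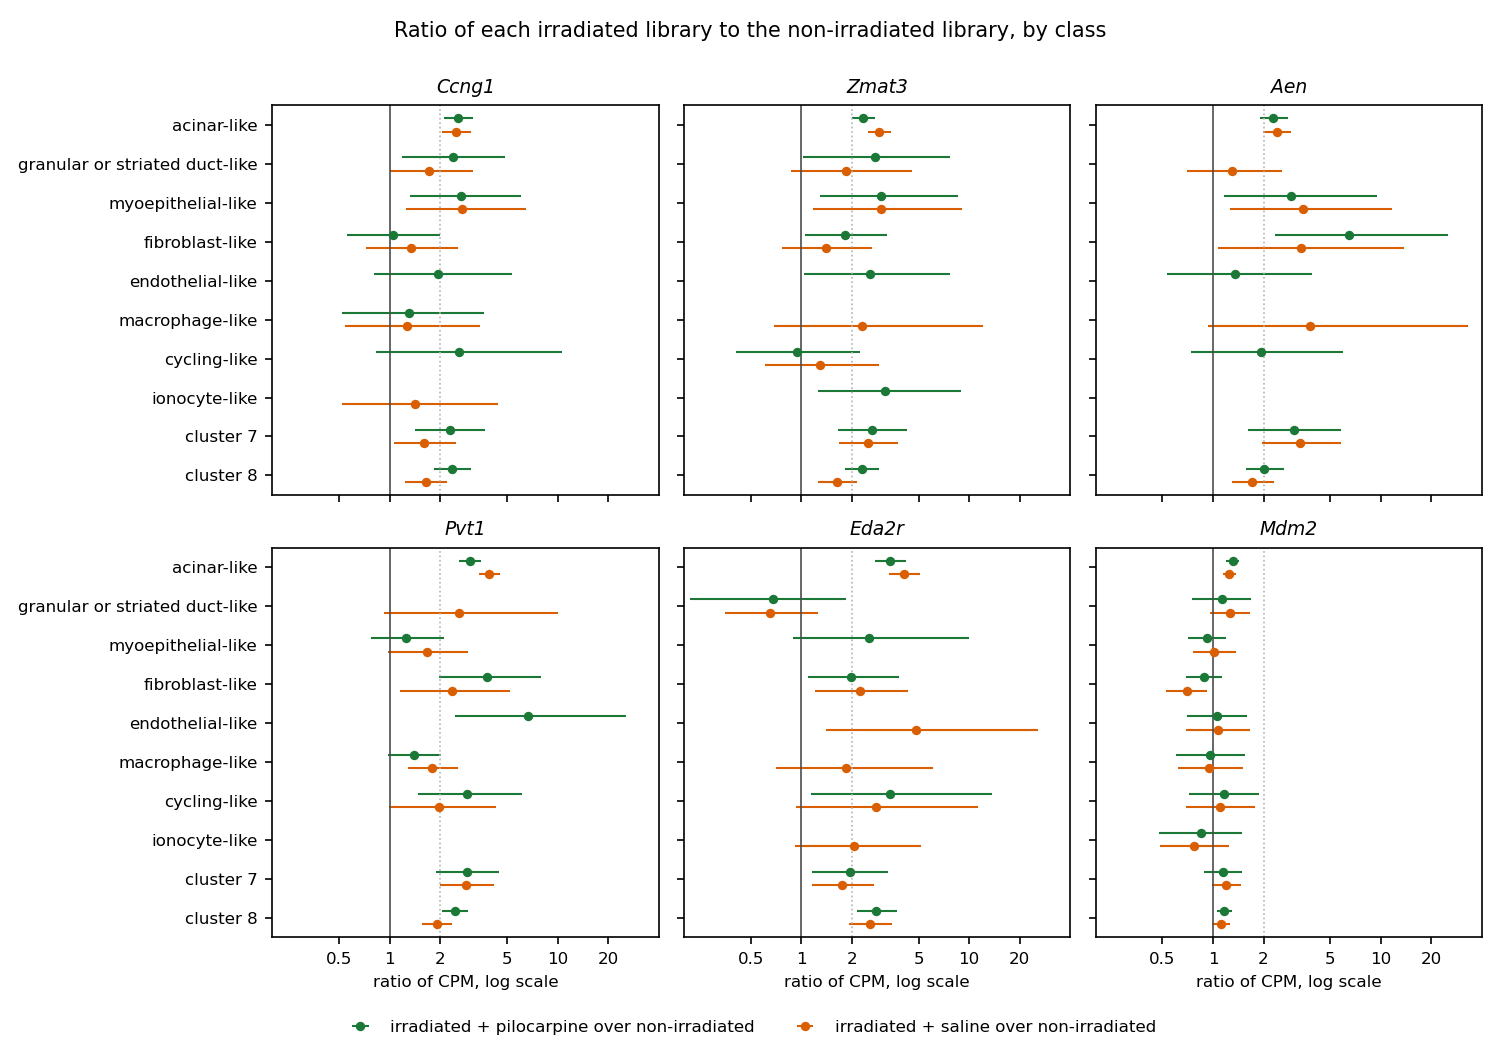
Ratio of CPM of each irradiated library to the non-irradiated library for 6 genes in 10 classes, on a log axis, with exact 95% conditional binomial intervals; a point is drawn where the gene had at least 20 UMIs over both libraries, the solid line marks 1 and the dotted line 2. Ccng1, Pvt1 and, with 1 exception, Zmat3 lie to the right of 1 in every class drawn, Eda2r lies left of 1 in duct-like nuclei, and Mdm2 lies close to 1.

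Granular or striated duct-like nuclei, which reabsorb salt and, in the mouse, secrete growth factors and kallikreins, had an acinar marker level of 14.4%, 7.07% and 20.6% of that in acinar-like nuclei. The percentages here and below are medians over 11 markers, and single markers can lie far above them. The acinar marker Mucl2 had 59237, 17553 and 34297 CPM in duct-like nuclei and 43348, 26770 and 37660 CPM in fibroblast-like nuclei. In acinar-like nuclei it had 55107, 57819 and 47951 CPM. IR+saline over non-irradiated, 3 of 23 genes were at least 2-fold higher (background: 3.85%), namely Ano3, Perp and Pvt1, and 0 were lower (background: 3.54%). Intervals lay above 1 for Ano3, Perp, Ccng1 and Mdm4, the last at a ratio of 1.30. Ano3 had 6, 62 and 0 UMIs, so it was at least 6.14-fold higher in the IR+saline library, with the floor at 3 UMIs of the non-irradiated library. Perp had 41.3, 19.6 and 6.49 CPM from 21, 61 and 6 UMIs, with an IR+saline over non-irradiated ratio of 3.02 (1.31 to 8.55). With finer clusters, at a resolution of 2, the log2 ratio of Perp was 0.74 in place of 1.46 for IR+saline over non-irradiated and 1.01 in place of 2.50 for IR+pilocarpine over non-irradiated. Cdkn1a had 1, 19 and 0 UMIs of 508148, 3113322 and 925040 in the duct-like nuclei, or 1.97, 6.10 and 0 CPM, and its IR+pilocarpine over IR+saline ratio of 0.322 had an interval that includes 1 (0.00776 to 2.03). Trp53 had 23.6, 21.8 and 19.5 CPM and Mdm2 82.7, 92.8 and 73.5 CPM. Ccng1 had 41.3, 29.9 and 17.3 CPM and Zmat3 23.6, 16.1 and 8.65 CPM, with IR+pilocarpine over non-irradiated ratios of 2.39 (1.19 to 4.90) and 2.73 (1.03 to 7.70). Eda2r had 11.8, 11.2 and 17.3 CPM, a ratio of 0.65 (0.35 to 1.26) for IR+saline over non-irradiated. IR+pilocarpine over IR+saline, 3 of 24 genes were higher (Bbc3, Perp and Sesn2; background: 3.87%) and 3 lower (Bax, Btg2 and Cdkn1a; background: 5.23%), most from few UMIs. In that comparison the interval lay above 1 for Perp alone. It lay below 1 for 4 genes, among them Sesn1, Mdm4 (ratio 0.811) and Ei24 (ratio 0.561). Over non-irradiated, 3 of 16 genes were higher in the IR+pilocarpine library (Ccng1, Perp and Zmat3; background: 2.78%) and Bax alone was lower (background: 3.98%). Bax had 2, 47 and 19 UMIs, and Bbc3 and Bax each turned direction between the IR+pilocarpine and IR+saline libraries under another setting. Over the alternatives the IR+pilocarpine over non-irradiated log2 ratio ran between 0.47 and 1.99 for Ccng1, 0.54 and 2.25 for Zmat3 and -4.19 and -0.30 for Bax. That of Ano3 for IR+saline over non-irradiated ran between 1.58 and 4.68, and that of Pvt1 was -0.056 when each library was clustered alone.

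Myoepithelial-like nuclei, the contractile cells around the acini, had an acinar marker level of 34.8%, 18.2% and 27.9%. Trp53 itself was higher in both irradiated libraries there, at 33.2, 41.1 and 12.6 CPM from 70, 36 and 9 UMIs. Its ratio was 3.26 (1.54 to 7.69) for IR+saline and 2.64 (1.31 to 6.0) for IR+pilocarpine over non-irradiated, and the log2 ratio for IR+saline was 2.36 with acinar RNA subtracted, against 1.63 without. IR+saline over non-irradiated, 6 of 23 genes were at least 2-fold higher (Aen, Ccng1, Phlda3, Plk2, Trp53 and Zmat3; background: 3.87%) and 0 lower (background: 2.79%), and 5 of the 6 had fewer than 20 UMIs in the non-irradiated library. Likewise 5 of 24 were higher IR+pilocarpine over non-irradiated (Aen, Ccng1, Eda2r, Trp53 and Zmat3; background: 6.3%) and 0 lower (background: 1.47%). Ccng1 had 33.7, 34.2 and 12.6 CPM, a ratio of 2.71 (1.26 to 6.50) for IR+saline. Zmat3 had 25.2, 25.1 and 8.41 CPM, and its ratio was 2.99 in both comparisons. Plk2 set the 2 irradiated libraries apart, with 30.9, 76.5 and 33.6 CPM from 65, 67 and 24 UMIs. It was the only one of 24 genes at least 2-fold lower IR+pilocarpine over IR+saline (background: 2.23%), at 0.404 (0.282 to 0.576), and 0 were at least 2-fold higher (background: 5.15%). The IR+pilocarpine level of Plk2 was close to the non-irradiated level, with a ratio of 0.918 (0.567 to 1.53). Over the alternatives the IR+saline over non-irradiated log2 ratio ran between 1.18 and 3.09 for Trp53, 0.69 and 2.12 for Ccng1 and 0.88 and 2.43 for Zmat3, and the IR+pilocarpine over non-irradiated log2 ratio of Eda2r was -0.28 with acinar RNA subtracted. Mdm2 had 111, 122 and 121 CPM, Fas 60.8, 61.6 and 50.4 CPM and Cdkn1a 7, 5 and 0 UMIs.

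In fibroblast-like nuclei, with an acinar marker level of 34.1%, 17.3% and 39.3%, 3 of 18 genes were at least 2-fold higher IR+saline over non-irradiated (Aen, Eda2r and Pvt1; background: 5.08%) and 0 lower (background: 5.9%). For the IR+pilocarpine library over the non-irradiated, 3 of 20 were higher (Aen, Cdkn1a and Pvt1; background: 4.28%) and 0 lower (background: 1.94%), and between the irradiated libraries 0 of 21 passed 2-fold in either direction (backgrounds: 4.4% and 2.03%). Aen had 40, 16 and 4 UMIs, or 26.8, 13.8 and 4.12 CPM. Its IR+pilocarpine over non-irradiated ratio was 6.49 (2.35 to 25) and its IR+pilocarpine over IR+saline ratio 1.95 (1.07 to 3.72). Over the alternatives its IR+pilocarpine over non-irradiated log2 ratio ran between 1.38 and 4.10. Cdkn1a, with 19, 9 and 2 UMIs, was 6.17 times higher in the IR+pilocarpine than in the non-irradiated library (1.49 to 54.6). Mdm2 ran the other way, with 105, 82.5 and 119 CPM and an IR+saline over non-irradiated ratio of 0.696 (0.526 to 0.921). Trp53 had 32.1, 37.0 and 33 CPM, Ccng1 19.4, 24.9 and 18.5 CPM and Zmat3 35.5, 27.5 and 19.6 CPM. Trp53inp1 had 89.6, 89.4 and 50.5 CPM and was 1.77 times higher in the IR+saline (1.25 to 2.54) and 1.78 times higher in the IR+pilocarpine library (1.27 to 2.52).

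Among rarer classes, endothelial-like nuclei (267, 193 and 232) had acinar marker levels of 53%, 34.5% and 44.3%. Cdkn1a had 18, 6 and 0 UMIs there, below the minimum in either comparison with the non-irradiated library. Set against the floor of 3 UMIs, its ratio was 3.57 for IR+pilocarpine and 1.70 for IR+saline, with counting error left out. Pvt1 had 45, 14 and 4 UMIs, or 64.7, 28.8 and 9.67 CPM, and was 6.69 times higher in the IR+pilocarpine than in the non-irradiated library (2.44 to 25.6) and 2.25 times higher than in the IR+saline library (1.21 to 4.43). The log2 ratio behind that first value was 2.62, and 1.60 to 4.48 over the alternatives. Eda2r, with 16, 17 and 3 UMIs, was the single gene of 14 at least 2-fold higher IR+saline over non-irradiated (background: 4.46%), and 0 were lower (background: 3.46%). IR+pilocarpine over IR+saline, 4 of 21 genes were at least 2-fold higher (Aen, Cdkn1a, Pvt1 and Zmat3; background: 4.38%), and over non-irradiated 2 of 18 (Pvt1 and Zmat3; background: 4.73%) while Rrm2b was lower (background: 2.84%). All 4 had fewer than 20 UMIs in the IR+saline library, Pvt1 alone of them had an interval above 1, and over the alternatives that count ran from 0 to 4. Zmat3 had 37.4, 18.5 and 14.5 CPM, Ccng1 33.1, 24.7 and 16.9 CPM, Mdm2 99.2, 101 and 94.3 CPM and Trp53 12, 9 and 6 UMIs. The death receptors Fas (71.9, 78.2 and 65.3 CPM) and Tnfrsf10b (40.3, 49.4 and 58.0 CPM) differed by less than their counting error between libraries. Fas was thus at levels of 65.3 CPM or more in endothelial-like nuclei, against 1.08 CPM or less in acinar-like nuclei of the same libraries.

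**Figure D4:**
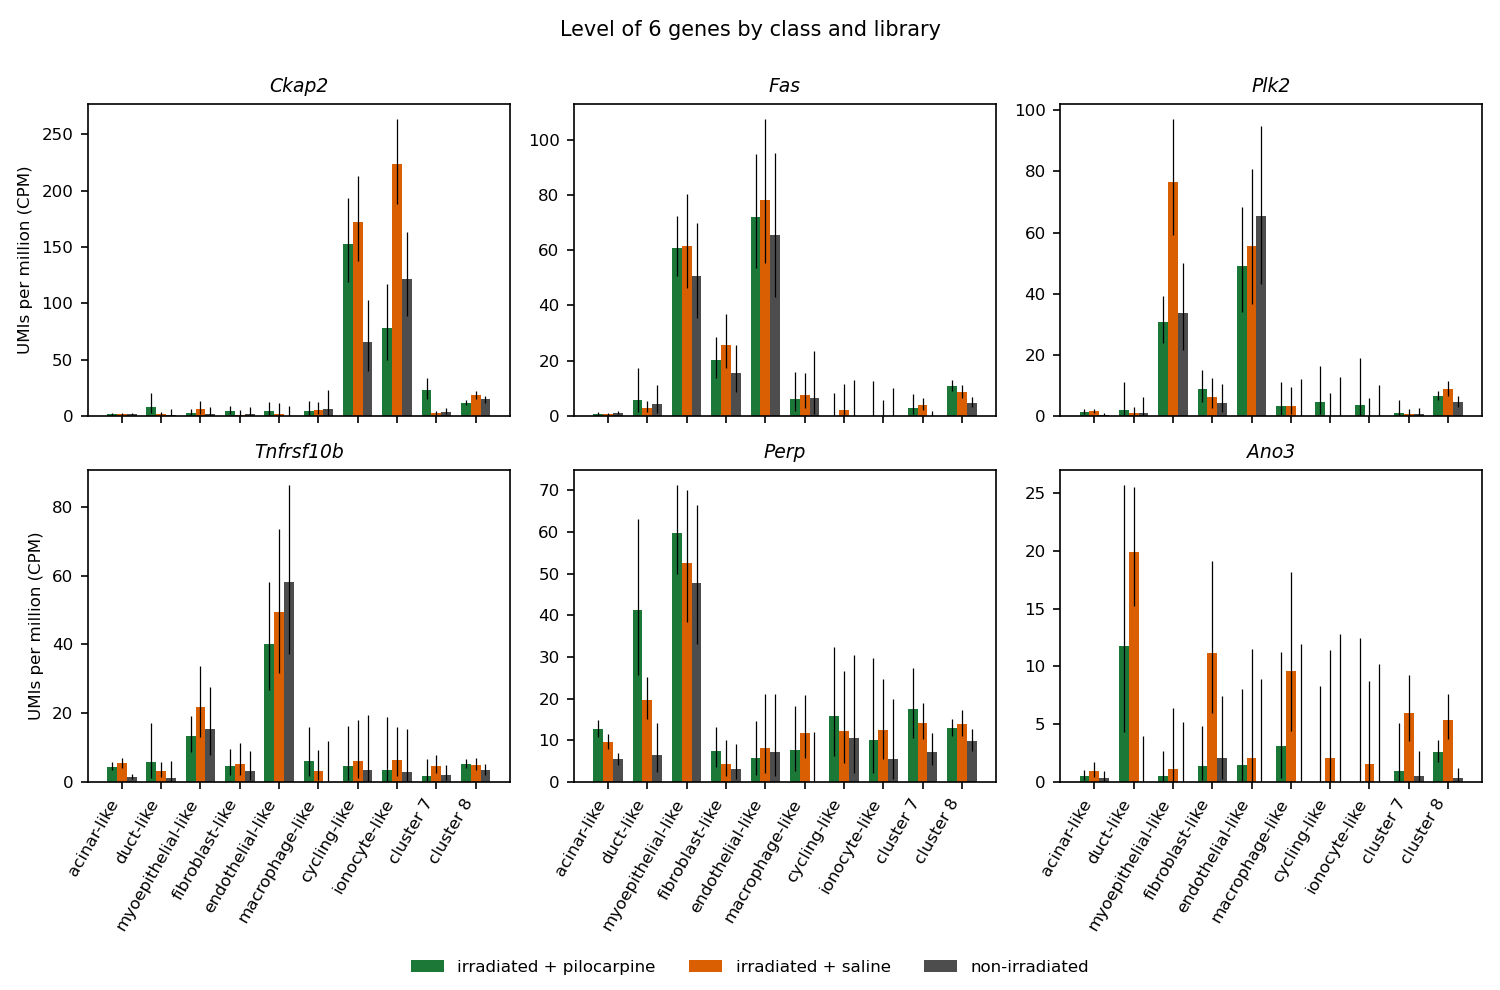
Level of 6 genes in CPM (y axis from 0) in 10 classes (x axis); bars are the IR+pilocarpine, IR+saline and non-irradiated libraries and lines the exact 95% Poisson intervals. Ckap2 stands high in cycling-like and ionocyte-like nuclei, Fas in endothelial-like and myoepithelial-like nuclei, Plk2 in the same 2 classes, Tnfrsf10b in endothelial-like nuclei, Perp in myoepithelial-like nuclei and Ano3 in duct-like nuclei.

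Ionocyte-like nuclei (113, 322 and 209), named from markers of the epithelial cells that carry ion channels and pumps, had acinar marker levels of 61.6%, 29.8% and 53.3%. Ckap2 stood out, with 77.9, 224 and 122 CPM from 23, 143 and 44 UMIs. It was 1.84 times higher in the IR+saline than in the non-irradiated library (1.30 to 2.64) and lower in the IR+pilocarpine than in the IR+saline library, at 0.348 (0.214 to 0.543). That made Ckap2 the 1 of 17 genes at least 2-fold lower IR+pilocarpine over IR+saline (background: 5.41%), while Trp53inp1 and Zmat3 were at least 2-fold higher (background: 4.81%). Over the alternatives the log2 ratio of Ckap2 in that comparison kept its sign, between -1.83 and -1.27. Trp53inp1 had 108, 51.6 and 55.4 CPM, a ratio of 2.10 (1.25 to 3.52). Zmat3 had 18, 11 and 7 UMIs, and its IR+pilocarpine over non-irradiated ratio of 3.15 (1.25 to 8.91), the 1 of 10 past 2-fold (backgrounds: 3.62% higher and 3.53% lower), reversed to a log2 ratio of -0.18 after thinning. IR+saline over non-irradiated, Eda2r and Polk were the 2 of 16 genes past 2-fold (background: 5.04%), Polk alone with an interval above 1. Polk had 74.5, 109 and 49.8 CPM, a ratio of 2.20 (1.29 to 3.92). Trp53 had 20.3, 25 and 27.7 CPM, Mdm2 77.9, 70.4 and 91.4 CPM, Ccng1 20.3, 23.5 and 16.6 CPM, and Cdkn1a 0, 1 and 0 UMIs.

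In macrophage-like nuclei (155, 215 and 94), with acinar marker levels of 56.4%, 37.6% and 57.9%, Pvt1 had 194, 249 and 139 CPM. It was 1.79 times higher in the IR+saline than in the non-irradiated library (1.29 to 2.54). Sesn1 had 188, 200 and 110 CPM, with ratios of 1.82 (1.26 to 2.71) and 1.71 (1.16 to 2.58) for IR+saline and IR+pilocarpine over non-irradiated, whereas in acinar-like nuclei its 3 levels lay between 92.5 and 95.5 CPM. With coarser clusters, at a resolution of 0.5, the IR+pilocarpine over non-irradiated log2 ratio of Sesn1 was 0.11, against 0.77 here. Aen and Zmat3 were the 2 of 18 genes at least 2-fold higher IR+saline over non-irradiated (background: 7.09%), both from 3 or fewer UMIs in the non-irradiated library and with intervals that include 1. Polk was the 1 of 14 IR+pilocarpine over non-irradiated (background: 5.79%), at 2.19 (1.05 to 5.11), and 0 of 18 passed 2-fold between the irradiated libraries (backgrounds: 2.81% and 3.2%). Mdm2 had 90.1, 89.5 and 93.9 CPM and Trp53 29.5, 25.6 and 16.2 CPM. Ccng1 had 19, 27 and 7 UMIs, and Cdkn1a 1, 6 and 1.

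Cycling-like nuclei (140, 158 and 136) carried acinar markers at 89.7%, 85.7% and 87.5% of the acinar-like level. All 14 genes with enough UMIs had IR+saline over non-irradiated ratios above 1, but only 1 of the 14, Ckap2, had an interval above 1. The share of all genes with a ratio above 1 was not computed. Of the 14 genes, 2 were at least 2-fold higher (Ckap2 and Eda2r; background: 6.49%). Ckap2, which acts at the mitotic spindle, had 153, 172 and 66.0 CPM from 68, 84 and 19 UMIs, with ratios of 2.61 (1.57 to 4.54) and 2.31 (1.37 to 4.07) for IR+saline and IR+pilocarpine over non-irradiated. In cycling-like nuclei 4 of 14 genes were at least 2-fold higher IR+pilocarpine over non-irradiated (Ccng1, Ckap2, Eda2r and Pvt1; background: 5.67%), 3 with intervals above 1. Trp53 had 24.7, 53.2 and 27.8 CPM from 11, 26 and 8 UMIs, and its IR+pilocarpine over IR+saline ratio of 0.464 (0.207 to 0.971), 1 of 18 past 2-fold lower (background: 2.89%), turned to a log2 ratio of 0.16 after thinning. The IR+saline over non-irradiated log2 ratio of Eda2r was -0.71 with acinar RNA subtracted. Ccng1, with 16, 7 and 4 UMIs, was the 1 of 18 at least 2-fold higher IR+pilocarpine over IR+saline (background: 2.86%), with an interval that includes 1. Zmat3 had 35.9, 49.1 and 38.2 CPM, Mdm2 117, 111 and 101 CPM and Cdkn1a 3, 5 and 0 UMIs.

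Too few UMIs limited the T or NK-like class (96, 89 and 36 nuclei) and the Schwann-like class (73, 56 and 66 nuclei), with acinar marker levels of 51.5%, 29.7% and 71.1% in the one and 48.2%, 31.3% and 54.0% in the other. Between the irradiated libraries 0 of 9 genes passed 2-fold in T or NK-like nuclei (backgrounds: 5.29% and 5.25%). Pvt1 had 186 and 166 CPM in the irradiated libraries there and Mdm2 103 and 96.3 CPM. In Schwann-like nuclei, 0 of 8 genes passed 2-fold IR+saline over non-irradiated (backgrounds: 5.52% and 9.24%). Pvt1 (17, 5 and 7 UMIs) was the 1 gene past 2-fold higher IR+pilocarpine over IR+saline (background: 5.84%) and over non-irradiated (background: 4.43%), with intervals that include 1 in both (0.802 to 7.85 and 0.961 to 6.95), and Ddb2 was the 1 lower over non-irradiated (background: 3.93%), at 0.411 (0.166 to 0.928). Trp53, Cdkn1a, Ccng1 and Zmat3 had 11 UMIs or fewer per library in both classes.

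Of the clusters that could not be named, cluster 8 had the deepest nuclei (median 15152, 6851 and 7270 UMIs) and the acinar marker level was 70.4%, 44.7% and 62.3%. It was led by Scnn1b and Wnt4. Here 31 of 33 genes reached the minimum IR+saline over non-irradiated and 4 were at least 2-fold higher (Ano3, Cdkn1a, Eda2r and Phlda3; background: 4.42%). In this cluster 12 of 32 were higher IR+pilocarpine over non-irradiated (background: 4.64%), namely Aen, Ano3, Bax, Ccng1, Cdkn1a, Eda2r, Fas, Gdf15, Phlda3, Psrc1, Pvt1 and Zmat3, and 0 were lower (background: 1.32%). Over the alternatives this count ran from 2 to 12. It was 2 after thinning, where only 10 genes reached the minimum in place of 32, and the background after thinning is not given. Cdkn1a had 50, 28 and 4 UMIs of 12119697, 6110662 and 5945742 in this deep cluster. Its ratios were 6.81 (2.38 to 26.7) for IR+saline and 6.13 (2.25 to 23.4) for IR+pilocarpine over non-irradiated. Thinned nuclei of this cluster held a mean of 0.997, 0.965 and 0.811 UMIs of the 33 genes, against 37.2, 15.3 and 13.1 unthinned. The log2 ratio of Cdkn1a was then -0.050 for IR+saline and 0.14 for IR+pilocarpine, against 1.74 and 1.62 before. These thinned values rest on too few UMIs to say whether the difference holds. Ano3 (31, 33 and 2 UMIs) was the 1 of 32 genes at least 2-fold lower IR+pilocarpine over IR+saline (background: 3.64%), which reversed after thinning, where few UMIs were left. In that comparison the interval lay above 1 for 8 genes, among them Ccng1, Zmat3, Trp53 and Pvt1. It lay below 1 for 4 genes, among them Ano3, Ckap2 and Sesn1. Zmat3 had 35.7, 25.5 and 15.6 CPM, Ccng1 30.4, 21.3 and 13 CPM, Trp53 27.0, 19.0 and 24.1 CPM and Mdm2 97.9, 93.9 and 83.9 CPM.

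Cluster 7 (198, 670 and 541 nuclei, led by Igkc, acinar marker level 76.3%, 65% and 73.0%) had 4 of 24 genes at least 2-fold higher IR+saline over non-irradiated (Aen, Ano3, Pvt1 and Zmat3; background: 3.83%) and 0 lower (background: 1.33%). In the IR+pilocarpine library 6 of 23 were higher than in the non-irradiated one (Aen, Ccng1, Ckap2, Perp, Pvt1 and Zmat3; background: 2.66%) and 0 lower (background: 2.77%). Trp53 had 35.0, 16.3 and 19.5 CPM, 2.15 times higher in the IR+pilocarpine than in the IR+saline library (1.38 to 3.33), and Ckap2 had 25, 7 and 7 UMIs. These were the 2 of 24 genes at least 2-fold higher between the irradiated libraries (background: 1.52%), and Ano3 was lower (background: 4.24%). The Ckap2 difference reversed, to a log2 ratio of -0.22, without the nuclei with the highest doublet scores. Pvt1 had 52.5, 51.3 and 18.1 CPM, but with acinar RNA subtracted its IR+saline over non-irradiated log2 ratio of 1.46 became -1.96. Zmat3 had 41.5, 39.1 and 15.7 CPM, Ccng1 36.9, 26 and 16.2 CPM, Mdm2 86.7, 90.5 and 75.6 CPM and Cdkn1a 2, 14 and 0 UMIs.

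Cluster 12 (265, 220 and 121 nuclei, led by Slc9a3 and Dclk1, acinar marker level 51.4%, 32.6% and 51.9%) had Ercc5 at 95.4, 59.4 and 26.6 CPM. Ercc5, which cuts damaged DNA strands in nucleotide excision repair, was 3.59 times higher in the IR+pilocarpine than in the non-irradiated library (1.55 to 10.2), whereas in acinar-like nuclei the ratio was 0.976 (0.879 to 1.08). Over the alternatives its log2 ratio ran between 1.12 and 6.03. It was among 7 of 17 genes at least 2-fold higher in that comparison (background: 7.21%), each with fewer than 20 UMIs in the non-irradiated library and 3 with intervals above 1, and over the alternatives this count ran from 1 to 7. IR+saline over non-irradiated, 3 of 14 were higher (Eda2r, Ercc5 and Zmat3; background: 7.13%), with intervals that include 1, and 0 of 19 passed 2-fold between the irradiated libraries (backgrounds: 3.13% and 3.16%). Zmat3 had 28.0, 38.5 and 13.3 CPM, Ccng1 20, 17 and 1 UMIs, Mdm2 82.3, 97.9 and 75.3 CPM, Trp53 12, 13 and 6 UMIs and Cdkn1a 1, 8 and 1. In cluster 9, with an acinar marker level of 94.4%, 97.4% and 100%, only IR+pilocarpine over non-irradiated could be compared. There 5 of 18 genes were at least 2-fold higher (Ccng1, Eda2r, Pvt1, Trp53 and Zmat3; background: 7.26%), 4 of them with intervals above 1. Bax and Ei24 were at least 2-fold lower (background: 12.9%), with intervals that include 1. The 1 gene with an interval below 1 was Mdm4, at a ratio of 0.596. Eda2r had 8 UMIs (66.5 CPM) in IR+pilocarpine and 14 UMIs (8.92 CPM) in non-irradiated nuclei of cluster 9, a ratio of 7.45 (2.71 to 19.0).

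Genes around the pathway, in 5 further lists, were read in acinar-like nuclei beside the 33. Over all genes there, 3.45% were at least 2-fold higher and 2.99% lower IR+saline over non-irradiated, 3.38% higher and 2.22% lower IR+pilocarpine over non-irradiated, and 1.48% higher and 1.19% lower IR+pilocarpine over IR+saline. Of 24 genes that sense or repair DNA damage, 24 reached the minimum and 0 passed 2-fold in any of the 3 comparisons, with a median log2 ratio of -0.06 for IR+saline over non-irradiated. Atr, the kinase that answers replication stress, had 64.7, 64.6 and 52.0 CPM, and Atm, the kinase that answers double-strand breaks, 123, 110 and 128 CPM. Of 13 partners and regulators of p53, 12 reached the minimum and 1, Trp63, was at least 2-fold lower IR+saline over non-irradiated, with 3.04, 0.918 and 3.31 CPM and a ratio of 0.277 (0.123 to 0.568). Of 20 further p53 targets, 14 reached the minimum, 4 of them at least 2-fold higher (Ddit4, Ephx1, Gtse1 and Slc19a2) with a median log2 ratio of 0.36. Slc19a2, a thiamine transporter, had 31.7, 38.2 and 14.1 CPM, and was 2.72 times higher in the IR+saline than in the non-irradiated library (2.26 to 3.28). Ddit4, an inhibitor of mTORC1, had 12.9, 15.1 and 5.38 CPM. Of 12 genes of the apoptosis machinery 0 passed 2-fold in that comparison, with a median log2 ratio of -0.02. Of 19 genes of the cell cycle and senescence, 8 reached the minimum and 3 were at least 2-fold higher (Ccnd1, Mki67 and Top2a). Ccnd1, which encodes cyclin D1, had 50.7, 51.5 and 24.8 CPM, and Mki67, a marker of cycling cells, had 31, 25 and 8 UMIs. Of the further p53 targets, 4 of 15 were at least 2-fold higher (Ddit4, Gtse1, Slc19a2 and Steap3) IR+pilocarpine over non-irradiated, as were Bid, Ccnd1 and Mki67 of the other lists. Between the irradiated libraries Trp63 and Steap3 alone of the 5 lists passed 2-fold, both higher in the IR+pilocarpine library.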

How the data were processed

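Single-nucleus RNA-seq libraries of mouse submandibular glands, 1 for each of 3 groups, were read from the matrices that the authors deposited. Their values are whole-number UMI counts per gene and barcode, made with Cell Ranger 7.0.1 on GRCm38 per the submitters' processing notes; the annotation and whether introns were counted are not given in the sources used here. The 33 members and the other lists were chosen with earlier results of these data known, and so were their roles.

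Kept barcodes had 500 genes or more, and mitochondrial genes held 5% of their UMIs or less. Counts were normalised per nucleus, and 3000 variable genes, 30 principal components, 15 neighbours and Leiden clustering at resolution 1 (scanpy 1.11.5, leidenalg 0.10.2) gave 22 clusters. A cluster was named from at least 3 detected markers at a median level of at least 0.6, a level set after the clusters were seen. Scrublet called 0 doublets in every library, so it did not work and none were removed. Counts were summed per library and class of at least 50 nuclei. A gene was compared where both libraries together held at least 20 UMIs, so a scarce gene can pass through its higher library. CPM intervals are exact Poisson and ratio intervals exact conditional binomial (scipy 1.17.1), at 95%. The floor for 0 counts is 3 UMIs per library and class. With 1 library per group there is no residual spread and no test. The summing and ratio steps were tested on simulated data. Total UMIs of the used nuclei were 33358056 (IR+pilocarpine), 29177212 (IR+saline) and 25566617 (non-irradiated).

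In most classes, Trp53, Mdm2, Cdkn1a, Ccng1 and Zmat3 were described. Up to 6 members of the highest and 3 of the lowest ratios were ranked by the interval bound nearest 1. Not all of these were described. Further members were named where a count was 5 or fewer or their level stood out, and these were chosen after their values were seen. Of each other list up to 2 genes were described by the same ranking. In all, 17 alternative settings were tried, among them other filters, thinning, pseudocounts, clustering, doublet removal and subtraction of acinar RNA, and 2 of them, the marker level of 0.65 and cluster 9 added to the acinar-like class, were chosen after seeing the data. Promoter windows were searched for the 10-base p53 binding site only. Gene positions are those of GENCODE M21 on GRCm38.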

Additional observations from a re-analysis of the deposited data

Results flagged for a closer look

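For 3 genes the ratio was at least 2-fold higher in one class and at least 2-fold lower in another under the same comparison, with both intervals clear of 1, and the difference between classes was not tested. Trp53 had an IR+pilocarpine over IR+saline ratio of 2.15 in cluster 7, from 38 and 52 UMIs, and 0.464 in cycling-like nuclei, from 11 and 26 UMIs. Ckap2 had 10.5 in cluster 7, from 25 and 7 UMIs, and 0.348 in ionocyte-like nuclei, from 23 and 143 UMIs. The first Ckap2 ratio reversed to a log2 ratio of -0.22 without the highest doublet scores, and that of Trp53 in cycling-like nuclei to 0.16 after thinning. IR+pilocarpine over non-irradiated, Bax had 2.04 in cluster 8, from 300 and 72 UMIs, and 0.192 in duct-like nuclei, from 2 and 19 UMIs. Without the 2-fold limit, 7 more pairs of a gene and a comparison had intervals above 1 in one class and below 1 in another, also untested: Mdm2 and Mdm4 IR+saline over non-irradiated, and Bax, Ei24, Psrc1, Pvt1 and Zmat3 IR+pilocarpine over IR+saline. Among these, Mdm2 had 1.25 in acinar-like and 0.696 in fibroblast-like nuclei. Pvt1 had 0.767 in acinar-like and 2.25 in endothelial-like nuclei, and Zmat3 0.804 in acinar-like and 3.54 in ionocyte-like nuclei. The 33 genes were also present in the barcodes that the filters left out, 1912 IR+pilocarpine, 1539 IR+saline and 1427 non-irradiated barcodes. There they summed to 999.9, 1217 and 984 CPM, so the IR+saline over non-irradiated ratio was 1.24 in barcodes that no main comparison used. The IR+pilocarpine and non-irradiated sums lay close together there, against 1180 and 930 CPM in the nuclei used. An alternative with a lower minimum of genes could use some of these barcodes.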

How the results depend on the processing

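No paired analysis was possible because the 3 groups hold 1 library each. Over 16 alternatives in acinar-like nuclei, the number of genes at least 2-fold higher ran from 8 to 12 for IR+pilocarpine over non-irradiated and from 7 to 12 for IR+saline over non-irradiated, and none was lower in either. The median log2 ratio for IR+saline over non-irradiated moved to 0.42 after thinning to 800 UMIs, to 0.35 with a pseudocount of 10 CPM and to 0.48 with equal weight for the acinar clusters. That for IR+pilocarpine over non-irradiated moved to 0.65 with a minimum of 1000 genes, 0.18 with a pseudocount of 10 CPM and 0.54 as a mean over nuclei. IR+pilocarpine over IR+saline, the count of genes at least 2-fold lower, 1 as given, was 0 with a minimum of 1000 genes, 0 with a marker level of 0.65 (chosen after seeing the data) and 2 with equal weight for clusters. The cause of these shifts was not tested.

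Of 10098 recomputed log2 ratios of single genes, 9606 stayed within their counting interval, 469 moved and 23 reversed. The settings reuse the same UMIs and scarce genes have wide intervals, so staying within them says little for scarce genes. The reversed log2 ratios, all outside acinar-like nuclei, follow. Thinning left few UMIs, and 10 to 13 genes then reached the minimum in cluster 8 and 9 in cluster 7. In ionocyte-like nuclei, cluster 12 and cycling-like nuclei 4, 5 and 5 did, so the thinned values there say little of direction. After thinning, cluster 8 gave -0.050 for Cdkn1a and -2.74 for Phlda3 (IR+saline over non-irradiated), 2.90 for Ano3 (IR+pilocarpine over IR+saline), and -0.0067 for Zmat3 and -0.66 for Phlda3 (IR+pilocarpine over non-irradiated). Thinning also gave, IR+pilocarpine over non-irradiated, -0.52 for Perp and -1.75 for Ckap2 in cluster 7, -0.18 for Zmat3 in ionocyte-like nuclei and -0.24 for Pvt1 in cluster 12. IR+pilocarpine over IR+saline, it gave 0.16 for Trp53 in cycling-like and -0.49 for Bbc3 in duct-like nuclei. With acinar RNA subtracted, Eda2r was -0.28 in myoepithelial-like nuclei, Aen -0.027 in cluster 8 and Pvt1 -0.25 in cluster 12 (IR+pilocarpine over non-irradiated), and Pvt1 was -1.96 in cluster 7 and Eda2r -0.71 in cycling-like nuclei (IR+saline over non-irradiated). Without the highest doublet scores, Ckap2 in cluster 7 was -0.22 over IR+saline and -0.69 over non-irradiated. With a minimum of 1000 genes, Bbc3 in duct-like nuclei was -2.22 (IR+pilocarpine over IR+saline) and Eda2r in cluster 12 -0.055 (IR+saline over non-irradiated). At a Leiden resolution of 2, Bbc3 in duct-like nuclei was -3.01, and with each library clustered alone Bax there was 0.45 (both IR+pilocarpine over IR+saline) and Pvt1 -0.056 (IR+saline over non-irradiated). The cause of these reversals was not tested. Outside acinar-like nuclei most genes past 2-fold had fewer than 20 UMIs in the lower library, so depth limits their size.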
